A study of Mus musculus with 38 samples.

Results

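The genes described here are 10 contractile and calcium-handling genes of slow muscle fibres, Myh7, Myl2, Myl3, Tnni1, Tnnc1, Tnnt1, Tpm3, Atp2a2, Casq2 and Myoz2. They are 10 of the 27554 genes counted in mouse gastrocnemius muscle, and all 10 were among the 12610 genes that passed the filter on low counts. The list was selected on measured values, the level and the shared variation of some of its genes in these libraries, so that the levels, fold changes and correlations of the 10 genes below are descriptions. Where a count of them that passed a threshold in the fit over all genes is given, it stands beside the share of all genes that passed and is not evidence about the 10. All mice were wild-type male C57BL/6JRj, either young (12 to 13 weeks) or aged (23 to 25 months). Each received cardiotoxin, a venom peptide that destroys muscle fibres, in the gastrocnemius of 1 leg, and muscle was taken 5 days later. Vehicle mice were given carboxymethyl cellulose by gavage every day, and NAM/PN mice were given nicotinamide (NAM, 200 mg/kg) with pyridoxine (PN, 4 mg/kg) in that vehicle. The sample descriptions carry different compound codes in the aged and the young treated mice, and both were taken as NAM/PN from the treatment labels. The leg opposite to the injection is called contralateral. It belonged to the same treated animals and is not muscle of an animal without injury. Vehicle libraries numbered 6 contralateral and 5 injured in young mice and 6 and 3 in aged mice. NAM/PN libraries numbered 5 contralateral and 3 injured in young mice and 6 and 4 in aged mice.

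Muscle fibres are built in a slow or a fast version, and most proteins of the contractile machine exist as a gene for each. Slow fibres contract slowly, rely on mitochondria and resist fatigue, whereas fast fibres shorten quickly and tire sooner. In the thick filament Myh7 is the slow myosin heavy chain, the motor itself, and Myl2 and Myl3 are its regulatory and essential light chains. In the thin filament Tnni1, Tnnc1 and Tnnt1 are the inhibitory, calcium-binding and tropomyosin-binding subunits of slow troponin, and Tpm3 is the tropomyosin of slow fibres, of which other cells make further isoforms. Atp2a2 is the pump that returns calcium to the sarcoplasmic reticulum, and Casq2 is the calsequestrin that holds calcium there. Myoz2 is a calsarcin that binds calcineurin at the Z-disc. The mouse gastrocnemius is mainly a fast muscle whose slow fibres lie in a restricted deep region near the soleus, a slow muscle next to it. Several of the 10 genes, among them Tnni1, Tnnt1, Tnnc1, Casq2 and Atp2a2, are also made by developing muscle, and Myh7, Myl2, Myl3, Tnnc1, Atp2a2 and Casq2 by the heart.

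On GRCm38 the genes are spread over several chromosomes. Myh7 lies at chr14:54970684-54994626 on the minus strand, Myl2 at chr5:122100951-122113472 and Myl3 at chr9:110741861-110769798, both on the plus strand. Tnni1 lies at chr1:135779434-135810989, Tnnc1 at chr14:31208312-31211729 and Tpm3 at chr3:90072649-90100902 on the plus strand, and Tnnt1 at chr7:4504570-4516382 on the minus strand. Atp2a2 lies at chr5:122453513-122502225 and Myoz2 at chr3:123006206-123035015 on the minus strand, and Casq2 at chr3:102086415-102146514 on the plus strand. All 10 are annotated as protein-coding in GENCODE M21. Tnnc1 overlaps Nisch, a widely expressed gene on the other strand that held 16803 counts over all libraries against 28349 for Tnnc1, and Myl3 overlaps Pth1r on the other strand with 1321 counts against 89443. The strand setting of the counting was not given in the sources used here, so reads of these gene pairs cannot be told apart with certainty.

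The 38 libraries came from 23 mice, 15 of which gave both legs, and held 4032414 to 7507191 counts. Values are given as TMM-scaled CPM, the counts of a gene relative to the total of its library multiplied by its TMM scaling factor. This factor was 0.716 to 0.967 in contralateral and 1.21 to 1.77 in injured libraries, so it enters every comparison of the legs. A library was made from the 3′ end of transcripts, so a count depends little on transcript length, and levels of different genes are set side by side on this scale without a length term. The summed level of 5 skeletal muscle fibre markers (Acta1, Ckm, Des, Myh4 and Pvalb) was 62113 to 140460 CPM in contralateral and 16301 to 49292 CPM in injured libraries, in accordance with the label of the tissue. The summed level of 7 macrophage markers was 91.4 to 1353 CPM in contralateral and 1166 to 2751 CPM in injured libraries. Aged vehicle contralateral replicates 3 and 6 stood apart, with macrophage sums of 593 and 1353 CPM beside 96.1 to 183 CPM in the other 4 libraries, and summed levels of 10 developmental and fusion genes of 1211 and 772 CPM beside 100.03 to 245 CPM.

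In contralateral muscle the slow-fibre genes differed more between mice of 1 group than between the groups. Myh7 was 2.62, 9.84, 107, 0.857, 495 and 293 CPM in the 6 young vehicle mice. In the 5 young NAM/PN mice it was 39.4, 1.18, 0.248, 159 and 76.9 CPM. In aged vehicle mice it was 38.7, 74.3, 121, 405, 25.4 and 63.9 CPM, and in aged NAM/PN mice it was 0.546, 188, 380, 1078, 129 and 25.8 CPM. Every group thus held mice with abundant slow myosin message, 3 of the 4 groups also held mice in which Myh7 was close to absent, and the aged vehicle group had no value under 25.4 CPM. The lowest values rest on 1 to 3 counts. A count of 0 allows up to 3 counts, which on this scale are 0.745 to 0.857 CPM in those libraries. These limits cover counting error only.

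The slow light chains shared their highest mouse, aged NAM/PN replicate 4, with Myh7. Myl3 ran from 44.0 through a median of 488 to 2028 CPM in young vehicle mice and from 89.5 through 673 to 2372 CPM in aged vehicle mice. In aged NAM/PN mice it ran from 262 through 1041 to 3625 CPM. In young NAM/PN mice its values were 211, 7.09, 6.71, 944 and 790 CPM, so that 2 mice of this group lay far under the other 3. Myl2 ran over a similar span, from 0.945 to 788 CPM in the 23 contralateral libraries, with a median of 173 CPM.

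The troponin genes shared this pattern. Tnnt1 was 13.1, 22.6, 198, 3.71, 689 and 467 CPM in young vehicle mice, in the same order of replicates as Myh7 above, and 60.8, 5.43, 1.99, 306 and 172 CPM in young NAM/PN mice. In aged vehicle mice it ran from 45.0 through 151 to 607 CPM, and in aged NAM/PN mice from 7.09 through 301 to 1050 CPM. Tnnc1 ran from 0 to 326 CPM over the 23 libraries with a median of 64.5 CPM. The 0 was a single young NAM/PN library, in which it allows a level of up to 0.745 CPM. Tnni1 was the least abundant of the 3 subunits, at 0.236 to 136 CPM with a median of 31.3 CPM. All 3 were lowest in mice in which Myh7 was also low.

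Outside the thick filament and the troponins the span was narrower. Tpm3 was 11.99 to 438 CPM and Atp2a2, the calcium pump, 22.0 to 411 CPM over the 23 contralateral libraries. Casq2 was 5.46 to 151 CPM and Myoz2 was 3.73 to 177 CPM. None of these 4 genes was under 3 CPM in any contralateral library, whereas Myh7 was at or under 1 CPM in 3 of 23, Tnni1 in 3, Myl2 in 1 and Tnnc1 in 1. Tnnt1 went down to 1.99 CPM and Myl3, the most abundant of the 10 by its median, to 6.71 CPM. Tpm3 and Atp2a2 are also made by cells other than slow fibres.

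**Figure D1:**
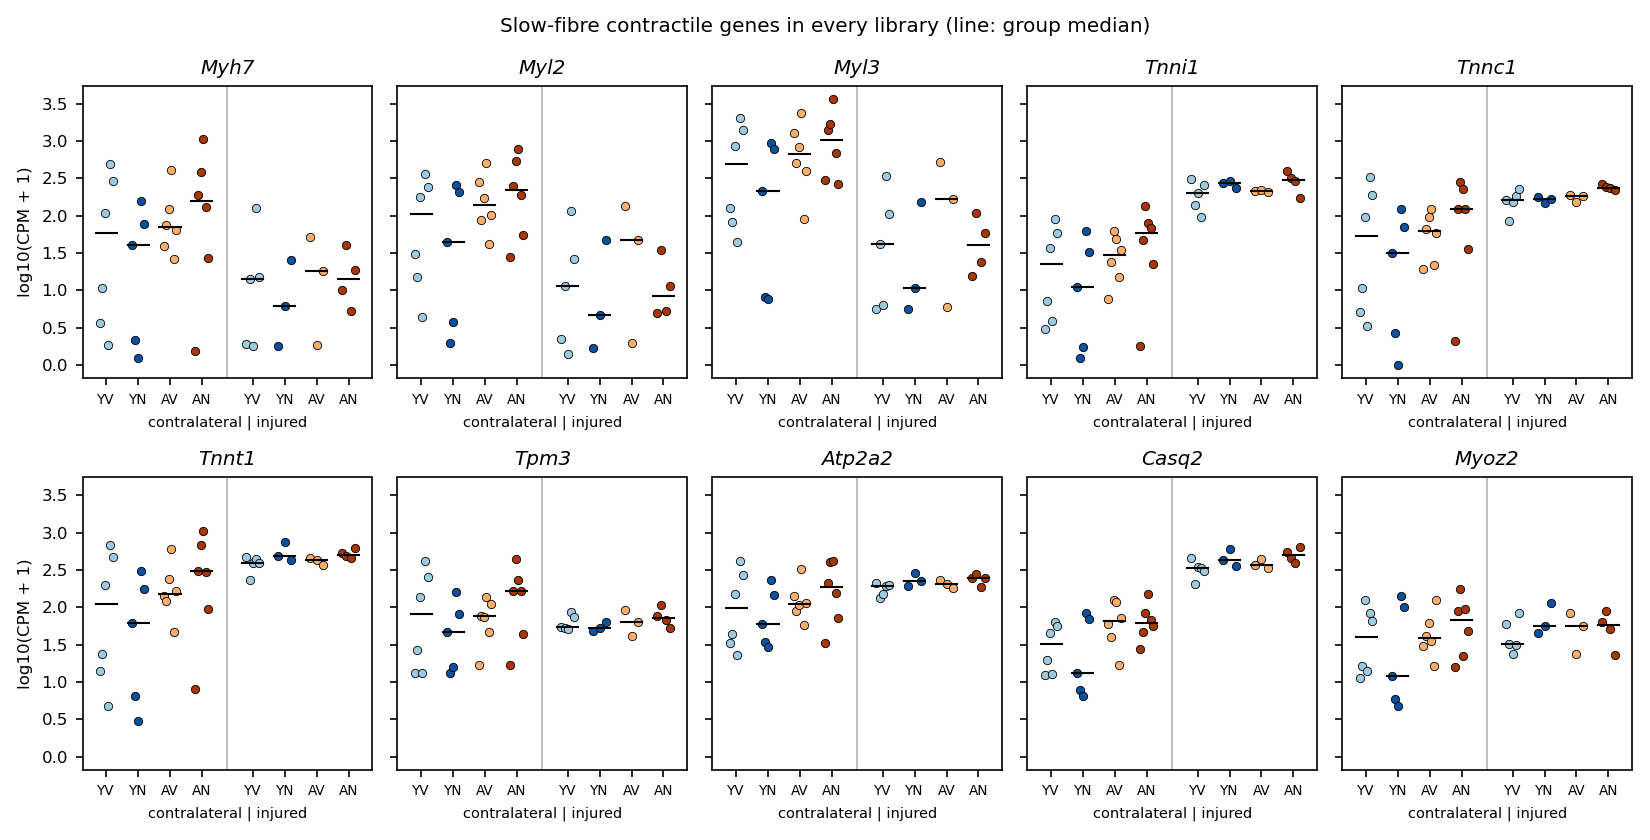
Level of each slow-fibre gene as log10(CPM + 1) in every library, by group (YV young vehicle, YN young NAM/PN, AV aged vehicle, AN aged NAM/PN), with contralateral groups left and injured groups right of the grey line. Points are libraries of single mice and the line is the group median. Contralateral points spread over up to 3 units for Myh7, while injured points of Tnnc1, Tnnt1, Atp2a2 and Casq2 sit close together.

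On the scale of log2(CPM + 1), the SD of Myh7 within groups was 2.93 in contralateral muscle, pooled over the 4 groups with 19 residual degrees of freedom. No other of the 12610 genes tested had a larger one. Tnnc1 (2.497), Tnnt1 (2.49), Myl2 (2.30) and Myl3 (2.28) followed, with 1 to 4 genes above each of them, and Tnni1 (2.04) had 7 genes above it. Even the steadiest of the 10, Casq2, had an SD of 1.20 and 123 genes above it. The median SD was 2.161 over the 10 genes, 0.417 over all genes tested and 0.338 over 15 fast contractile genes. Variation of this kind was part of the choice of the list.

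The 10 genes moved up and down together from mouse to mouse. Pearson's r of their deviations from the group means of log2(CPM + 1) over the 23 contralateral libraries was positive in all 45 pairs, with a median of 0.887 and a range of 0.718 to 0.989. The closest pair was Myh7 and Tnnt1 (r = 0.989, Spearman's rho = 0.988), followed by Myh7 and Tnnc1 (r = 0.981, rho = 0.969). Myoz2 was the loosest member, with r = 0.718 to Myh7 and 0.731 to Myl3. Within single groups the median r was 0.981 in young vehicle (6 libraries), 0.969 in young NAM/PN (5), 0.691 in aged vehicle (6) and 0.885 in aged NAM/PN mice (6). All 45 pairs were positive in each of these 4 groups, but the lowest pair was 0.871 and 0.904 in young and 0.0619 and 0.190 in aged mice. Values of 1 library share its depth and its scaling. The deviations of the mean of the 10 genes had r = 0.268 (rho = 0.273) with the log2 total count and -0.0515 (rho = -0.0306) with the TMM factor in contralateral muscle. Between the young vehicle libraries whose descriptions are written in 1 of the 2 styles the range of Myh7 was similar, 0.857 to 293 CPM in 3 libraries and 9.84 to 495 CPM in the other 3.

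The start regions of 3 genes that moved together in contralateral muscle and parted after injury are shown, to let their sequences be read beside the values. They are the 250 bases before the RefSeq start of Myh7, Tnnc1 and Casq2 (GRCm38.p6), which coincides with the GENCODE start for these genes. RefSeq windows matched 9 of the 10 genes, all but Atp2a2. Capitals mark matches on either strand to the E-box CANNTG, read by myogenic factors, the MCAT motif CATTCC, read by TEAD factors, the MEF2 consensus or the CArG box.
Myh7, chr14:54994627-54994876, minus strand: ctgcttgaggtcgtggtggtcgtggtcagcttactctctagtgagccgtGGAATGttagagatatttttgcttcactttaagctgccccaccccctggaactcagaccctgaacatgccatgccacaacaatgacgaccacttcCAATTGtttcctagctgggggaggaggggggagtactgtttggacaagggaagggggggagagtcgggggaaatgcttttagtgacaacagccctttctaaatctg
Tnnc1, chr14:31208062-31208311, plus strand: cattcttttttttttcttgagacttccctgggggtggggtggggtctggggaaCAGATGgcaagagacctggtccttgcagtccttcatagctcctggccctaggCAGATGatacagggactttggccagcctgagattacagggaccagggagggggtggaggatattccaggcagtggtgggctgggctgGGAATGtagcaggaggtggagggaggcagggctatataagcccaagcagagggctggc
Casq2, chr3:102086165-102086414, plus strand: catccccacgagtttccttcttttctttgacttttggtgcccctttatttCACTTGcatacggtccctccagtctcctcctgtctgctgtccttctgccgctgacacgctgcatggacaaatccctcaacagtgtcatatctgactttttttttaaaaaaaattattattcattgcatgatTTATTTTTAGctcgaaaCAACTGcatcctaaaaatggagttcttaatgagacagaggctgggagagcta

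Myh7 and Tnnc1 each had an MCAT match, 201 and 58 bases before the start, and Casq2 had none but held a MEF2 match 69 bases before its start. Over the 9 genes with a window, an E-box was found in 9, an MCAT match in 3, a MEF2 match in 2 and a CArG box in 1. Among all 32851 windows of this length in the table, 66.2% held an E-box, 12.6% an MCAT match, 1.69% a MEF2 match and 1.47% a CArG box. The 9 genes had 13 windows, so their counts per gene cannot be set directly against shares per window. Some windows also lay far from the GENCODE start, 21817 bases for Myl3, which held the only CArG box, and up to 20077 for Tnni1 and 8227 for Myl2. These are matches of letters and not measured binding sites.

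In the injured leg the 10 genes no longer behaved as a unit. The thick-filament genes were low in most injured libraries. Myh7 was 0.937, 13.4, 0.789, 125 and 14.2 CPM in the 5 young vehicle mice, 0.823, 5.23 and 24.4 CPM in young NAM/PN mice, 51.3, 0.834 and 17.1 CPM in aged vehicle mice and 9.23, 39.2, 4.38 and 17.5 CPM in aged NAM/PN mice. Myl3 was 4.69, 40.8, 5.39, 337 and 105 CPM in young vehicle mice and 14.8, 106, 23.1 and 56.9 CPM in aged NAM/PN mice. Young vehicle replicate 4 was highest for both genes in its group. Apart from Myl3 in aged NAM/PN mice, the injured range of Myh7, Myl2 and Myl3 overlapped the contralateral range in each arm.

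The slow troponins and the calcium-store genes were instead abundant and even. Casq2 was 459, 205, 348, 331 and 307 CPM in young vehicle, 427, 607 and 360 CPM in young NAM/PN, 366, 447 and 330 CPM in aged vehicle and 545, 460, 390 and 638 CPM in aged NAM/PN injured muscle. The lowest injured value, 205 CPM, lay above the highest contralateral value of 151 CPM. Tnni1 was 311, 140, 201, 96.0 and 259 CPM in young vehicle mice, 277, 290 and 233 CPM in young NAM/PN mice, 214, 220 and 208 CPM in aged vehicle mice and 390, 315, 292 and 173 CPM in aged NAM/PN mice. Within each arm its injured and contralateral values did not overlap. Tnnt1 was 232 to 736 CPM, Tnnc1 83.0 to 263 CPM and Atp2a2 130 to 287 CPM over the 15 injured libraries. In each case this was inside the range pooled over all contralateral libraries but without its low values. Within young NAM/PN mice, injured Tnnt1 (from 425 CPM) and Tnnc1 (from 145 CPM) lay above the highest contralateral values, 306 and 122 CPM. Tnnc1 did so in aged vehicle mice too (from 153 CPM, above 121 CPM). In the other arms the legs overlapped for these genes, as did Atp2a2 in every arm. Tpm3 was 39.8 to 105 CPM and Myoz2 22.1 to 114 CPM.

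The spread within groups reflected this division. In injured muscle the pooled SD of log2(CPM + 1) was 2.45 for Myl3, 2.41 for Myl2 and 2.13 for Myh7, with at most 3 of all genes tested above any of them. It was 0.322 for Tnnt1, 0.340 for Tnnc1, 0.267 for Atp2a2 and 0.353 for Casq2, beside a median of 0.315 over all genes tested. Tnni1 (0.489) and Tpm3 (0.3995) were somewhat above that median, and Myoz2 (0.804) lay between.

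The comparison of the injured with the contralateral leg asks what 5 days of regeneration did to the slow apparatus in each arm. In young vehicle mice Casq2 was 3.28 ± 0.56 (SE) higher on the log2 scale and Tnni1 was 2.63 ± 0.80 higher, whereas Myl3 was lower (-2.94 ± 1.24). These 3 of the 10 genes passed an adjusted p of 0.05 in edgeR's quasi-likelihood test, 2 higher and 1 lower, in a comparison in which 55.5% of all genes tested passed. Myh7 was at -2.31 ± 1.33 and Myl2 at -2.21 ± 1.22, and neither passed. Tnnt1 (0.72 ± 0.91), Tnnc1 (0.62 ± 0.88), Atp2a2 (0.19 ± 0.59), Myoz2 (-0.20 ± 0.72) and Tpm3 (-1.19 ± 0.71) were within about 2 SE of 0. Myl3 lost its call in 7 of the 11 fits that left out 1 library, and without young vehicle injured replicate 4 Myh7 and Myl2 were called as well, with log2 fold changes of -4.35 and -3.87.

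The direction of most genes was the same in the other arms. Values of those arms were also known when the list was chosen, so this is a description and not a replication. In aged vehicle mice Tnni1 (2.77 ± 0.87) and Casq2 (2.43 ± 0.59) passed, 2 of 10 genes beside 38.4% of all genes tested. Of the contralateral libraries that stood apart, leaving out replicate 6 moved Myoz2 most, from 0.07 to 0.58, and leaving out replicate 3 gave Tnni1 at 3.08 and Casq2 at 2.67. The same 2 genes passed in young NAM/PN mice, with Tnni1 at 3.66 ± 0.95 and Casq2 at 3.70 ± 0.65, beside 40.5% of all genes. In aged NAM/PN mice 5 of 10 genes passed beside 55.3% of all genes, Tnni1 (2.31 ± 0.82) and Casq2 (2.84 ± 0.57) higher and Myh7 (-4.09 ± 1.60), Myl2 (-4.56 ± 1.51) and Myl3 (-4.72 ± 1.497) lower. Myh7 kept its call in this arm only while all of injured replicates 1, 3 and 4 and contralateral replicate 4 were in the fit. The median standard error of the 10 genes was 0.84 to 1.00 in these comparisons, against 0.28 to 0.33 for all genes, so that fold changes of 1 to 2 on the log2 scale often did not pass. Bulk RNA cannot tell fewer cells of a type from less RNA per cell.

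**Figure D2:**
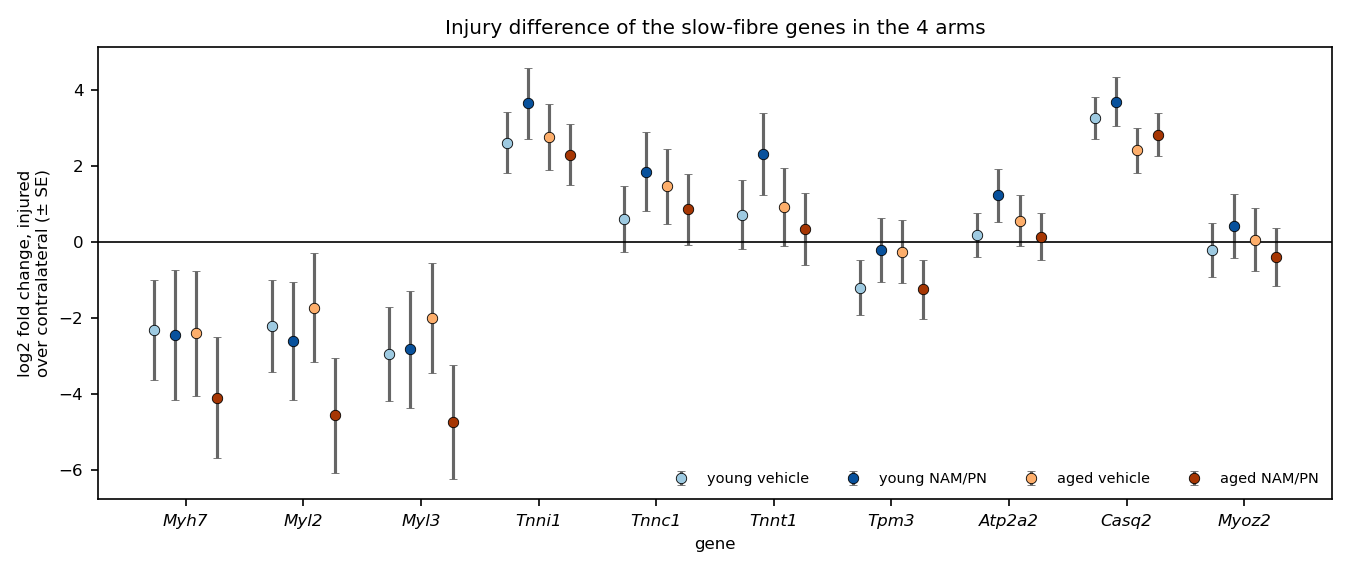
Log2 fold change of the injured over the contralateral leg for each slow-fibre gene in the 4 arms, with bars of ± 1 SE derived from edgeR's F statistic. Casq2 (2.43 to 3.70) and Tnni1 (2.31 to 3.66) lie above 0 in all 4 arms, and Myh7, Myl2 and Myl3 lie below 0 in all 4.

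The number of genes that did not overlap between the legs is given beside the same share over all genes. It was 2 of 10 in young vehicle (39.1% of all genes), 3 in aged vehicle (29.3%), 4 in young NAM/PN (43.2%) and 3 in aged NAM/PN mice (37%). The median log2 fold change of the 10 genes was -0.0014 in young vehicle, 0.32 in aged vehicle, 0.84 in young NAM/PN and -0.12 in aged NAM/PN mice, beside medians over all genes between -0.01 and 0.05. A single median hides genes that went in opposite directions.

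The 15 mice with both legs allow the same comparison within an animal. Casq2 and Tnni1 were higher in the injured leg in 15 of 15 mice, Tnnc1 in 12, Tnnt1 in 10 and Myoz2 in 10. Myh7 was higher in 5 of 15, Myl2 in 4 and Myl3 in 4. The 5 mice in which Tnnt1 was not higher had contralateral levels between 467 and 1050 CPM. In the mouse with the lowest contralateral Tnnt1, 1.99 CPM, the injured leg held 736 CPM, the highest value among injured libraries. Across the 15 mice the deviations of the 2 legs from their group means had r = -0.62 for Tnnt1 (rho = -0.639) and -0.417 without the 2 mice farthest from the median of the contralateral leg. For Myh7 r was 0.11 (rho = 0.136) and 0.123 without those 2 mice.

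**Figure D3:**
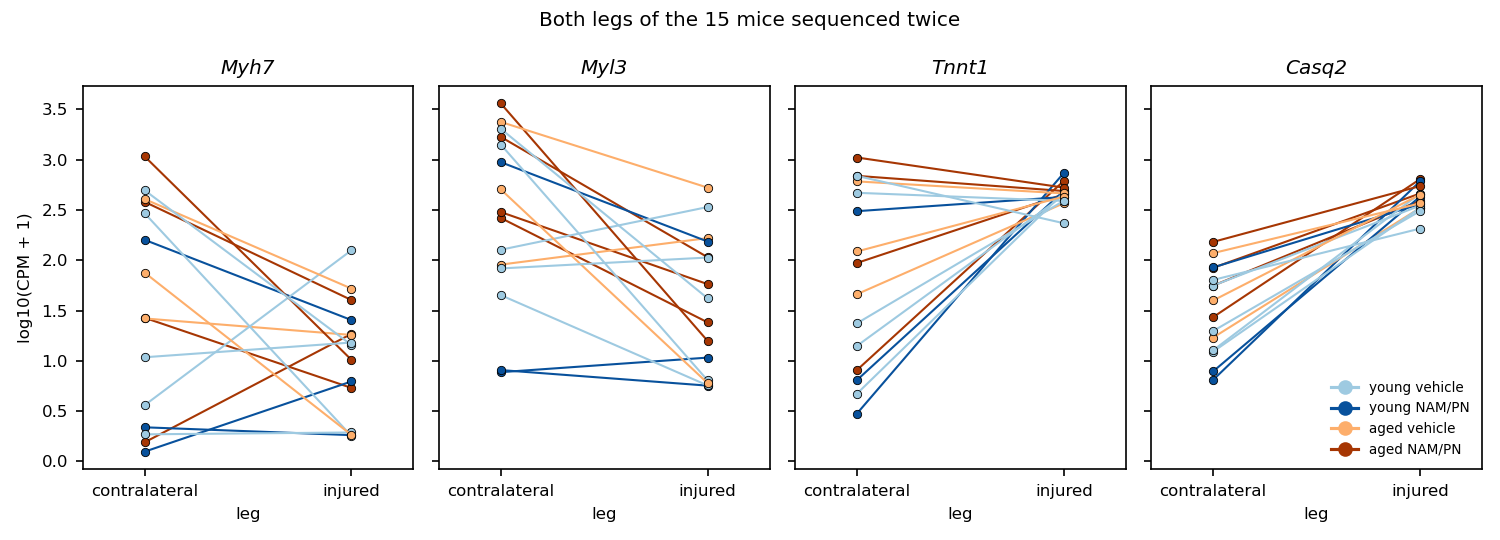
Level as log10(CPM + 1) of Myh7, Myl3, Tnnt1 and Casq2 in the contralateral and the injured leg of the 15 mice with both libraries, with a line joining the legs of a mouse and colour for the arm. Lines of Tnnt1 and Casq2 run from scattered contralateral values into a narrow injured range (232 to 736 and 205 to 638 CPM), whereas lines of Myh7 and Myl3 cross.

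The mouse was also fitted as a replicate block, which uses only differences within the 15 mice that gave both legs. Contralateral libraries without an injured partner were left out of it. The effect of the block was not separated from that of the smaller set of libraries. In this fit the fold changes shifted upward in young mice. In young vehicle mice Tnnt1 was at 3.04 in place of 0.72 and Tnnc1 at 2.89 in place of 0.62, and in young NAM/PN mice Tnnt1 was at 5.42 and Tnnc1 at 4.80. Tpm3 changed sign, from -1.19 to 0.34 in young vehicle and from -0.20 to 0.87 in young NAM/PN mice. The thick-filament genes came closer to 0 in young NAM/PN mice, with Myh7 at -0.72 in place of -2.45, Myl2 at -1.23 in place of -2.61 and Myl3 at -0.99 in place of -2.82. None of the values of Tnnt1 and Tnnc1 passed the test in that fit. Myl3 in young vehicle, Tnni1 in aged vehicle and Myh7 in aged NAM/PN mice lost their calls under the block, which left 2, 1, 2 and 4 genes called in young vehicle, aged vehicle, young NAM/PN and aged NAM/PN mice.

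After injury the shared variation broke into parts. Over the 15 injured libraries the median r of the 45 pairs was 0.276, with a range of -0.553 to 0.992, and 13 pairs were negative. Myh7, Myl2 and Myl3 stayed together as the thick-filament genes, at r = 0.96 to 0.992. Tpm3 followed them, with r = 0.783 to Myh7 (rho = 0.811) and 0.82 to Myl2 (rho = 0.779). Casq2 and Tnnt1 formed another close pair (r = 0.914, rho = 0.882), joined by Atp2a2 (r = 0.77 to Tnnt1). Tnni1 was negatively related to Myh7 (r = -0.553, rho = -0.411), and Casq2 to Myl3 (r = -0.428, rho = -0.45). Myh7 and Tnnt1, the closest pair in contralateral muscle, had no such relation here (r = -0.0617, rho = -0.0536). The 15 fast contractile genes had a median r of 0.758 over 105 pairs in the same libraries, beside 0.604 in contralateral muscle.

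**Figure D4:**
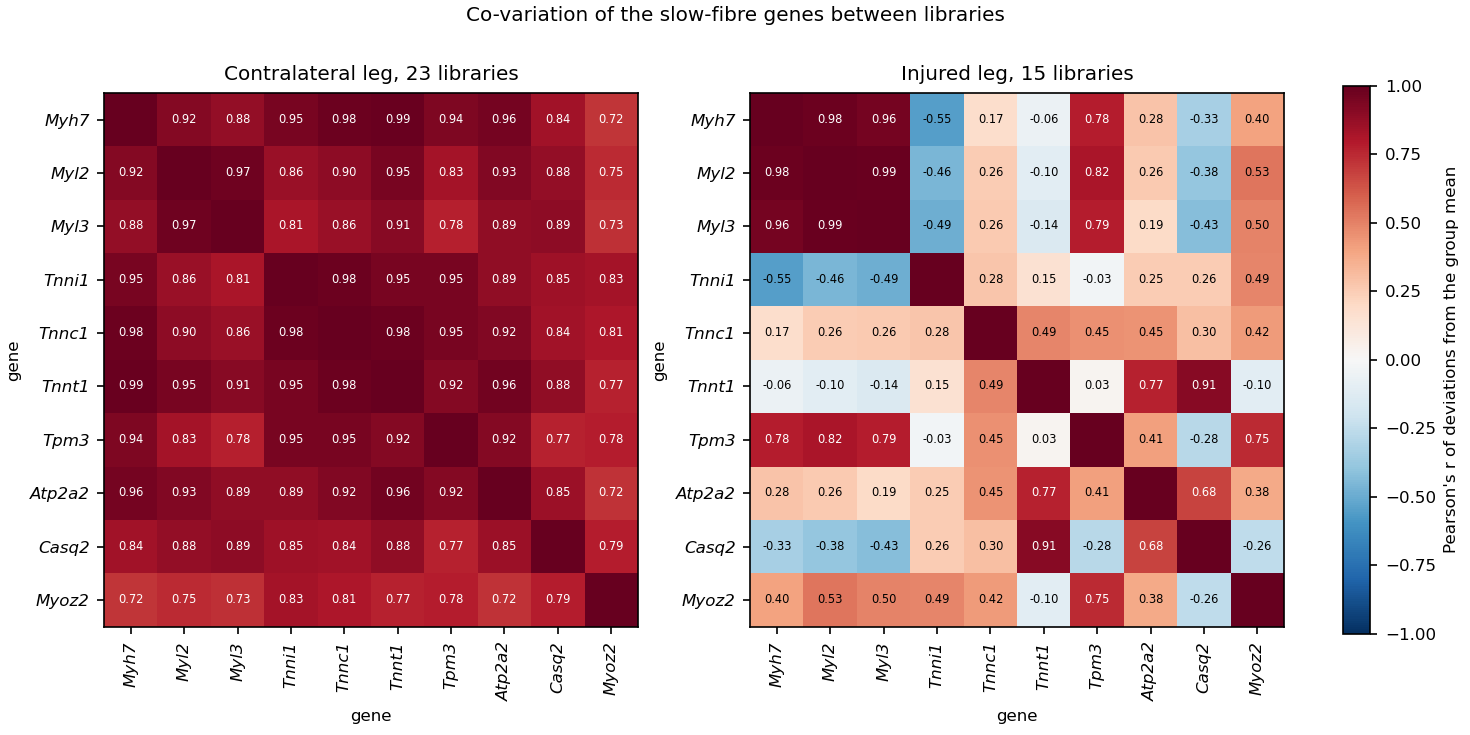
Pearson's r between the slow-fibre genes over contralateral (left, 23 libraries) and injured libraries (right, 15 libraries), computed on deviations of log2(CPM + 1) from the group means, with blue negative and red positive. The left panel is red throughout (0.718 to 0.989), and the right panel keeps Myh7, Myl2 and Myl3 together (0.96 to 0.992) apart from Tnnt1 and Casq2 (0.914).

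Set beside its fast counterpart, each slow gene remained the minor form in contralateral muscle. Myh7 made up 0.374% ± 0.526 (SD, n = 23) of the summed level of the 4 adult myosin heavy chains Myh7, Myh2, Myh1 and Myh4, with a highest value of 2.18%. Casq2 took 4.00% ± 3.88 (SD, n = 23) of Casq2 and Casq1 together in contralateral and 38.5% ± 10.5 (SD, n = 15) in injured muscle, where its share reached 60.4%. Tnni1 took 0.235% ± 0.239 of Tnni1 and Tnni2 in contralateral and 6.71% ± 4.46 in injured muscle, Tnnt1 0.98% ± 1.00 and 6.70% ± 2.90 of Tnnt1 and Tnnt3, and Atp2a2 1.06% ± 0.97 and 5.89% ± 2.78 of Atp2a2 and Atp2a1 (SD, n = 23 and n = 15). The shares of the slow light chains were lower in injured muscle instead, at 2.02% ± 2.45 in contralateral and 0.444% ± 0.606 in injured libraries for Myl2 and at 3.86% ± 3.599 and 1.03% ± 1.26 for Myl3, with n = 23 and n = 15.

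The fast counterparts were lower in the injured leg in all 4 arms, each by the edgeR test. In young vehicle mice the log2 fold change was -2.10 ± 0.30 for Myh4, the fastest myosin (adjusted p = 2.94e-07), -2.17 ± 0.23 for Tnni2 (adjusted p = 1.45e-09), -2.20 ± 0.23 for Atp2a1 (adjusted p = 1.72e-09), -2.12 ± 0.21 for Myoz1 (adjusted p = 6.29e-10) and -1.42 ± 0.25 for Casq1 (adjusted p = 1.05e-05). Mylpf fell least, at -0.95 ± 0.19 (adjusted p = 4.98e-05). For troponin I, C and T, the calcium pump and calsequestrin the fitted difference was positive for the slow and negative for the fast gene in all 4 arms. Of these slow genes Tnni1 and Casq2 passed in each arm, whereas Tnnc1, Tnnt1 and Atp2a2 passed in none. For the myosin heavy and light chains both were negative, although Myh7, Myl2 and Myl3 did not pass in most arms, as given above. Of the whole list of 15 fast contractile genes, 13 fell in young vehicle, aged vehicle and young NAM/PN mice and 14 in aged NAM/PN mice, and 0 rose in any arm. In the same order of arms 55.5%, 38.4%, 40.5% and 55.3% of all genes tested changed, and 3306, 2209, 2277 and 3290 of 12610 genes fell. The largest falls among the 15 in young vehicle mice were in Pvalb, the calcium buffer of fast fibres, at -2.53 ± 0.40 (adjusted p = 2.36e-06), Atp2a1 and Tnni2.

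Other genes of slow fibres, written down as a separate list of 9, did not move in 1 direction. In young vehicle mice 3 rose and 3 fell, beside 55.5% of all genes that changed, with a median of -0.91. Sln, a peptide inhibitor of the calcium pump, rose by 4.32 ± 0.61 (adjusted p = 2.94e-07), from 5.07 ± 2.74 (SD, n = 6) to 102 ± 16.5 CPM (SD, n = 5). Myl6b, a light chain of embryonic and slow muscle, rose by 3.54 ± 0.38 (adjusted p = 2.36e-09), and Csrp3, a Z-disc protein, rose by 1.95 ± 0.83 (adjusted p = 0.0434). Mb, the oxygen store myoglobin, fell to a log2 fold change of -2.004 ± 0.69 (adjusted p = 0.0142), Pln, another inhibitor of the pump, to -1.41 ± 0.54 (adjusted p = 0.0239) and Fabp3, a fatty acid carrier, to -1.39 ± 0.44 (adjusted p = 0.00768). In aged vehicle mice 2 of the 9 rose and 1 fell (38.4% of all genes changed), in young NAM/PN mice 2 rose and 0 fell (40.5%), and in aged NAM/PN mice 2 rose and 3 fell (55.3%). These counts lie near the shares over all genes.

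The setting of the 10 genes in regenerating muscle can be read from 3 further lists, whose counts in young vehicle mice stand beside 55.5% of all genes that changed there. All 10 developmental contractile and fusion genes rose in young vehicle mice, with a median log2 fold change of 6.00, led by Myh8 (6.84 ± 1.04, adjusted p = 1.03e-06) and Myh3 (6.82 ± 1.02, adjusted p = 8.47e-07), the perinatal and embryonic myosins, and by Mymx, needed for fusion (6.78 ± 0.83, adjusted p = 1.31e-08). In aged vehicle, young NAM/PN and aged NAM/PN mice 9, 9 and 10 of these 10 genes rose, beside 38.4%, 40.5% and 55.3% of all genes that changed. Of 10 sarcomere genes shared by fast and slow fibres 7 fell and 0 rose, led by Tcap (-2.26 ± 0.36, adjusted p = 2.27e-06), Ckm (-2.21 ± 0.25, adjusted p = 6.88e-09) and Ldb3 (-1.86 ± 0.19, adjusted p = 1.64e-09). Of 14 regulators of fibre type 10 fell and 1 rose in young vehicle mice. The riser was Prox1, a factor of slow fibres, at 1.15 ± 0.40 (adjusted p = 0.0148). Ppargc1a, a coactivator of oxidative genes (-1.81 ± 0.32, adjusted p = 1.43e-05), Sox6, a repressor of slow genes (-1.66 ± 0.16, adjusted p = 3.99e-10), and Eya1, a cofactor of homeodomain factors in muscle (-1.65 ± 0.28, adjusted p = 7.42e-06), fell most. Macrophage markers were higher in injured than in contralateral libraries in every arm, as given above, and their part in the differences of the 10 genes was not tested.

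The comparison of aged with young vehicle mice asks whether age changed these levels. Between aged and young vehicle mice 0 of the 10 genes passed in contralateral muscle, beside 1.1% of all genes tested, and 0 in injured muscle, beside 0% of all genes. In contralateral muscle the difference of aged over young was largest for Casq2 (1.06 ± 0.52 SE), whose values were 11.3 to 62.7 CPM in 6 young and 16.0 to 125 CPM in 6 aged mice. It was -0.32 ± 1.18 for Myh7 and -0.09 ± 0.87 for Tnnt1. Leaving out 1 library moved Myh7 between -1.23 and 0.55. Within the libraries of 1 style of sample description, which leaves 3 young contralateral mice, Myh7 was at -0.75 and Casq2 at 0.76. In injured muscle 9 of 10 genes had a positive log2 difference, with a median of 0.17, and the largest was Myl3 at 1.23 ± 1.33. Without young vehicle injured replicate 4 it was 2.56, and without aged vehicle injured replicate 1 it was -0.21. Standard errors of 0.52 to 1.55 in these comparisons were wide beside the 0.27 to 0.32 that was the median over all genes.

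NAM/PN was compared with vehicle in each leg at each age. In contralateral muscle of aged mice all 10 log2 differences of NAM/PN over vehicle were positive, from 0.01 ± 0.51 for Casq2 to 1.31 ± 1.19 for Myh7, with a median of 0.77, and 0 of 10 passed beside 0.00793% of all genes. Since the 10 genes vary together from mouse to mouse, a shared sign is that of 1 measurement and not of 10. Without aged NAM/PN contralateral replicate 4, the library with 1078 CPM of Myh7, the difference of Myh7 was 0.26. In young mice 8 of 10 differences in contralateral muscle were negative, with a median of -0.79 and Myh7 at -1.45 ± 1.28, and 0 of 10 passed beside 0% of all genes. Myh7 was at -0.58 without young vehicle contralateral replicate 5, and within 1 description style it was at -0.83 and Myl2 was positive, at 0.15. In injured muscle 0 of 10 genes passed in aged or in young mice, beside 0% of all genes in both. Myl2 and Myl3 had the widest differences in aged injured muscle, at -2.20 ± 1.48 and -2.21 ± 1.44, and these were -0.87 and -0.77 without aged vehicle injured replicate 1. Casq2 was at 0.42 ± 0.66 in aged and 0.49 ± 0.62 in young injured muscle. Tnnc1 was the only one of the 10 without overlap in a NAM/PN comparison, with 223 to 263 CPM in 4 aged NAM/PN and 153 to 190 CPM in 3 aged vehicle injured libraries, where 12.1% of all genes had no overlap.

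The difference of the injury response between aged and young vehicle mice, and between aged NAM/PN and aged vehicle mice, was fitted as an interaction. It passed for 0 of the 10 genes in both, beside 0% of all genes. Its largest values were -2.84 ± 1.83 for Myl2 and -2.74 ± 1.79 for Myl3 (SE) in the comparison by NAM/PN. Leaving out 1 library moved these values between -3.90 and -1.51 for Myl2 and between -3.41 and -1.30 for Myl3.

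Genes outside the list followed the same mice. The likeness of a gene was the lower of its correlations with the mean deviation of the 10 genes in the 23 contralateral and the 15 injured libraries, over 8692 genes with a mean of at least 5 CPM. The closest was Ldhb (mean 44.2 CPM), the lactate dehydrogenase subunit of oxidative tissue, with r = 0.925 and 0.935 in the 2 legs. Coq8a (0.897 and 0.924), of coenzyme Q synthesis, and Bdh1 (0.869 and 0.9), of ketone body use, are mitochondrial. Atp1b1 (0.898 and 0.894) is a beta subunit of the sodium-potassium pump. Fhl1 (0.88 and 0.909) and Ankrd2 (0.86 and 0.885) are muscle LIM and ankyrin repeat proteins, Vgll2 (0.891 and 0.864) is a cofactor of TEAD proteins, and Pla2g12a (0.922 and 0.862) is a phospholipase. Myh2, the myosin of fast oxidative fibres, was also among these 10 genes (0.867 and 0.938). It ran from 17.95 to 6291 CPM in contralateral and from 21.3 to 1931 CPM in injured libraries, while Myh1 and Myh4 were not among the 10. The mean of injured libraries leans on Myh7, Myl2 and Myl3, which vary most there.

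Some values of the libraries moved with the slow-fibre genes. In contralateral muscle the mean deviation of the 10 genes had r = 0.937 (rho = 0.927) with the score of the 9 other slow-enriched genes, 0.707 (rho = 0.644) with 4 endothelial markers, -0.726 (rho = -0.753) with the 5 fibre markers, of which Myh4 and Pvalb are fast, and 0.0172 (rho = 0.0593) with the 15 fast contractile genes. It had r = 0.485 (rho = 0.627) with the share of mitochondrial counts, which was 14.2% to 29.6% in these libraries, and 0.322 (rho = 0.375) with 7 macrophage markers. In injured muscle it had r = 0.845 (rho = 0.779) with the mitochondrial share, at 6.67% to 19.4%, 0.94 (rho = 0.95) with the other slow-enriched genes and -0.301 (rho = -0.254) with macrophage markers. It had r = -0.537 (rho = -0.636) with the TMM factor and 0.334 (rho = 0.304) with the log2 total count of the injured libraries. The share of the dissected muscle that came from its slow region, or from the neighbouring soleus, was not measured, and the part of any of these values in the differences between mice was not tested.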

How the data were processed

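RNA of gastrocnemius muscle was sequenced with the QuantSeq 3′ mRNA kit. The authors aligned reads with STAR to GRCm38, counted reads per gene with HTSeq (version 2.16.2 in the submitters' notes) and deposited raw counts for 27554 genes, of which 27518 were named from GENCODE M21. The rest held 0.00214% of counts. Groups followed the sample titles. Counts were analysed in edgeR 4.0.16 (R 4.3.3) with filterByExpr, TMM and 1 quasi-likelihood model of all 38 libraries with a coefficient for each of the 8 groups, and p-values of the 12 comparisons were adjusted by Benjamini-Hochberg over 12610 genes (threshold 0.05). This test reports no SE. The SE of a fold change was taken as the size of the unshrunk log2 fold change divided by the square root of the F statistic. Nothing in the sources says that libraries of a mouse were repeated, and the 77 pairs of libraries within groups all differed beyond counting noise (lowest chi-square per degree of freedom 5.98). Mouse identifiers in the labels paired 15 contralateral and injured libraries, whose deviations correlated between -0.312 and 0.285. On simulated counts with 200 genes changed by 2 on the log2 scale, 92.3% of the 196 that passed the filter were recovered in the injury comparison of young vehicle mice, 91% of 189 by age in injured muscle and 86.5% of 192 by NAM/PN in aged injured muscle, with 5, 4 and 11 unchanged genes called. The changed genes were drawn from all genes, so these shares do not hold for the 10 genes. Their median standard error was 0.84 in that injury comparison, beside 0.28 over all genes. CPM are TMM-scaled, correlations used log2(CPM + 1), and promoters came from RefSeq. Named genes were the 10 slow-fibre genes, their fast counterparts, up to 3 genes per direction and list with the largest fold change among those passing in young vehicle mice, and the 10 most similar genes, of which 1 is not reported here. The members and all lists were chosen with earlier results of these data known. Alternatives were RLE scaling, other filters, DESeq2 1.42.0, blocks, 1 description style, a pseudocount of 0.1 and leaving out each library.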

Additional observations from a re-analysis of the deposited data

Results flagged for a closer look

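Of 60 values of 1 gene in 1 group of 4 to 6 libraries, 6 held a library far from the others by Dixon's criterion, where chance gives about 1 in 20, or 3. That chance number assumes independent and normally distributed values, which the CPM of these genes are not. The list was also chosen with their variation known, so the 6 are a description and not an excess over chance. Each flagged library was the highest of its group. Aged vehicle contralateral replicate 4 was highest for Myh7, at 404.7 CPM beside 25.4 to 121 CPM in the other 5 libraries, for Tnnt1, at 607.2 CPM beside 45.0 to 237 CPM, and for Atp2a2, at 319.2 CPM beside 56.3 to 140 CPM. Aged NAM/PN contralateral replicate 4 held 1078 CPM of Myh7 beside 0.546 to 380 CPM. Young vehicle injured replicate 4 held 124.6 CPM of Myh7 beside 0.789 to 14.2 CPM and 113.1 CPM of Myl2 beside 0.395 to 24.99 CPM. Because the 10 genes vary together, the 3 genes of the first library and the 2 genes of the last are not separate events. No gene rose in every mouse of 1 arm and fell in every mouse of another.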

How the results depend on the processing

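Of 2000 recomputed fold changes of the 10 genes, 1988 moved by less than the SD between libraries, 12 moved by more and 0 of those called changed sign. That SD is wide for these genes (2.93 for Myh7 beside a median of 0.417 over all genes in contralateral muscle), so the count is no measure of stability. In young vehicle mice the injury difference of Myh7 went from -2.31 to -4.35 without injured replicate 4. That of Tnnt1 went from 0.72 to 3.04 with the mouse as replicate block, a fit that held only mice with both legs. The median correlation of the 10 genes was 0.877 to 0.888 in contralateral and 0.265 to 0.271 in injured muscle under another pseudocount or scaling, and 0.874 to 0.902 and 0.25 to 0.379 when 1 library was left out. For the number of slow-fibre genes called in the injury comparisons, leaving out 1 library gave 2 to 5 in young vehicle, 2 to 2 in aged vehicle, 2 to 4 in young NAM/PN and 4 to 5 in aged NAM/PN mice. With the mouse as replicate block it was 1 in aged vehicle mice. Over all genes, the injury counts stayed within 1.5 times under each alternative. The 139 genes called by age in contralateral muscle became 242 with DESeq2 and 0 with 1 description style or with the title number as replicate block, and 1 to 248 when 1 library was left out, with 1 gene without aged vehicle replicate 6, 60 without replicate 3, 220 without replicate 2 and 248 without replicate 5, and 9, 8 and 80 without young vehicle replicates 1, 3 and 5. By age in injured muscle 0 genes became 16 with DESeq2 and 1 with the title block (796 at an unadjusted p under 0.05). For NAM/PN in aged injured muscle 0 became 62 with DESeq2, 266 with the title block and 0 to 112 with 1 library left out, the highest without NAM/PN replicate 4, 13 without vehicle replicate 2 and 1 without NAM/PN replicate 2 (931 unadjusted). For NAM/PN in aged contralateral muscle the 1 gene became 0 with DESeq2 or the title block and 0 to 3 with 1 library left out. In young mice NAM/PN called 0 genes in both legs (347 injured and 614 contralateral at an unadjusted p under 0.05) and 0 by DESeq2. The interactions by age and by NAM/PN called 0 genes (1223 and 964 unadjusted), and 1 and 4 with DESeq2. The title numbers do not mark shared animals, so their block pairs nothing. The causes of these changes were not tested. At 4032414 to 7507191 counts a library, levels under about 1 CPM rest on few reads.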

Other observations

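Mybpc1, the slow myosin-binding protein C, and Myom3, an M-band protein of slow and intermediate fibres, were picked after their values had been seen. Over the 23 contralateral libraries their deviations had r = 0.915 and 0.905 with the mean deviation of the 10 slow-fibre genes, and over the 15 injured libraries r = 0.151 and 0.544. Among 8692 genes with a mean of at least 5 CPM, 61 had r over 0.8 with that mean in contralateral muscle, 67 in injured muscle, and 3 had r under -0.8 in contralateral muscle. Myh2 made up 5.26% ± 4.29 (SD, n = 23) of the 4 adult heavy chains in contralateral and 4.72% ± 4.55 (SD, n = 15) in injured muscle, and Myh1 made up 2.47% ± 1.63 and 7.12% ± 3.25 in the same libraries.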
